A study of Mus musculus with 2 samples.

Results

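Translation factors are the proteins that start and drive protein synthesis on the ribosome, and 62 of their genes were followed here among 43346 gene entries of the tables. The members were the protein-coding genes whose mouse symbols begin with Eif1 to Eif6 or with Eef1 or Eef2. The eIF2 kinases (Eif2ak genes) and the Y-linked Eif2s3y were left out. As the choice went by name, the members also include inhibitors (Eif4ebp1, Eif4ebp2 and Eif4ebp3), a kinase (Eef2k) and methyltransferases that act on elongation factors.

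The RNA came from G1E, an immortalised mouse line of erythroid progenitors labelled Gata1-, strain C57BL/6J and male, with the age given as 0 day and the stage as postnatal. The assay was total RNA sequencing with a size limit of over 200 nucleotides, in 2 biological replicates that each started from 1 ng of RNA and carried spike-in RNAs. No treatment is labelled and there is 1 group, so levels are described and replicate 1 is set over replicate 2. No condition is tested. Gata1, which encodes the erythroid regulator that the label calls missing, had 798 and 649 estimated counts in replicates 1 and 2, and which part of the gene is disrupted is not stated in the labels, so these counts check nothing. Of 8 erythroid progenitor markers 8 were detected, led by the receptor Kit, against 0 of 14 markers of lymphocytes, macrophages, fibroblasts, endothelium and pluripotent cells.

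The libraries differed in depth and in make-up, which bears on every value below. Replicate 1 held 31649878 estimated counts and replicate 2 held 40597614, of which nuclear protein-coding genes took 26.9% and 18.9%. The ribosomal RNA entry Gm42418 took 52.6% and 40.3%, and the mitochondrial ribosomal RNAs 14.6% and 35.4%. Genes of red cell maturation also set the libraries apart: counts of Slc4a1, whose product exchanges anions across the red cell membrane, were 115 (replicate 1) and 10387 (replicate 2), and those of Alas2, the erythroid enzyme that opens haem synthesis, were 56 and 414. The part of these differences in the results below was not tested.

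In eukaryotes eIF2 brings the initiator tRNA to the small ribosomal subunit, eIF3 holds the complex together, and eIF4F (eIF4E, eIF4G and eIF4A) binds the capped end of the mRNA. eIF2B recharges eIF2 with GTP, eIF5 triggers GTP hydrolysis at the start codon, and eIF5B joins the subunits. eEF1A then delivers each aminoacyl-tRNA and eEF2 moves the ribosome one codon along. In red cell precursors this machinery makes globin, and phosphorylation of eIF2 ties it to the supply of haem.

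Several members are paralogs of each other, and the codons around the best known sites printed here are more alike than the coding parts as a whole. eIF5A carries hypusine, a modified lysine found in no other protein family, and the capitals below mark the codon of that lysine, codon 50. The flanking 15 bases on either side are in lower case, and Eif5a2 differs from Eif5a at 3 of 33 bases.
Eif5a: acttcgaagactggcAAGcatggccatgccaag
Eif5a2: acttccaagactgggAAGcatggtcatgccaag
For the eIF4A helicases the capitals mark the codons of the DEAD motif that gives this helicase family its name, at codons 182 to 185 of Eif4a1, 183 to 186 of Eif4a2 and 187 to 190 of Eif4a3. Over 36 bases Eif4a2 differs from Eif4a1 at 4 and Eif4a3 at 8.
Eif4a1: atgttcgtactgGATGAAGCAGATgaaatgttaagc
Eif4a2: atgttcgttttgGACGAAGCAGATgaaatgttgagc
Eif4a3: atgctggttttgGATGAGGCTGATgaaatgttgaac
Over the whole aligned coding part, identity was 72.8% between Eif5a and Eif5a2, 77.6% between Eif4a1 and Eif4a2, and 66.4% between Eif4a1 and Eif4a3. It was 80.1% between Eef1a1 and Eef1a2 and 81.1% between Eif1 and Eif1b. The Eif4a2 transcript used has 1086 coding bases, against 1218 in Eif4a1, and 1083 were aligned.

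mRNAs of the translation machinery are known to open with a run of pyrimidines, the 5′ terminal oligopyrimidine tract, through which the mTOR pathway and LARP1 control their translation. The windows below run from 8 bases before to 22 after the annotated RefSeq start (GRCm38.p6) of 5 members. Capitals mark the longest run of C or T within 15 bases of the start, of at least 8 bases. Shorter runs, as in Eif3l, are left in lower case.
Eef1a1 (chr9:78481703-78481732, minus strand): ccgCCCTCTTCCCgagggtgggggagaacg
Eef2 (chr10:81176623-81176652, plus strand): ggccgggcgttgacgtcagcggTCTCTTCC
Eif2s3x (chrX:94212630-94212659, minus strand): gcaTTTTCCTTTTCTCTCCgagcaagatgg
Eif3f (chr7:108934407-108934436, plus strand): taggCTCTCTCTCTTTCTCggcaagatggc
Eif3l (chr15:79075215-79075244, plus strand): gTTCTTCTTCCgctctctcccacgggcttc
RefSeq promoter windows of 300 bases were at hand for 46 members (60 windows, since some genes have several starts). Such a run lay near the start in 26.7% of the 60 windows, against 17.2% of 8538 windows of detected genes and 17.6% of all 32851. The run covers the start itself in Eef1a1, Eif2s3x, Eif3f and Eif3l and begins 14 bases after it in Eef2.

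Around the starts, 3 short motifs were searched on both strands of the 300 bases, of which 250 lie before the start and 50 from it on: the E-box CACGTG, which reads the same on either strand, the ETS-type site CCGGAAG, and the TATA-like TATAAA. On the opposite strand the ETS-type site reads CTTCCGG. No matches overlapped in the member windows. CACGTG lay in 23.3% of member windows, against 10.7% of windows of detected genes and 7.15% of all. CCGGAAG lay in 31.7%, against 21.9% and 8.86%, and TATAAA in 6.67%, against 6.23% and 13.6%. Windows of 1 gene overlap in part, and a match describes the letters only. Eif4e, the cap-binding protein and a known target of Myc, has a pair of CACGTG matches, 228 and 64 bases before the second of its 2 annotated starts. The 80 bases before that start hold the nearer match in capitals.
Eif4e (chr3:138527188-138527267, plus strand): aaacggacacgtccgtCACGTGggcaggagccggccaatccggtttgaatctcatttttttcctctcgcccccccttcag
In Eef2 the 80 bases before the start hold CACGTG and, 15 bases before the start, TATAAA.
Eef2 (chr10:81176551-81176630, plus strand): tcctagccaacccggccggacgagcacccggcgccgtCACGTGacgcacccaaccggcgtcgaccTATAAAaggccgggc
In Eif3c, a core subunit of eIF3, CTTCCGG occurs 68 and 34 bases before the start.
Eif3c (chr7:126566367-126566446, minus strand): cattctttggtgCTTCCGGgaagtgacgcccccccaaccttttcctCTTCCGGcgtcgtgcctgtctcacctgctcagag
CACGTG was found in 12 members (among them Eif4a1, Eif4g1, Eif5a and Eef2k) and CCGGAAG in 16 (among them Eif3d, Eif3g, Eif3l and Eif3m). Matches wholly before the start were present in 11 members for CACGTG and in 12 for CCGGAAG. The others, Eif3a for CACGTG and Eef1b2, Eif2b2, Eif2b4 and Eif4enif1 for CCGGAAG, had matches only at or after it.

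Nearly all members were expressed. At a detection limit of 1 TPM (transcript abundance per length, scaled to a fixed sum per library) in both libraries, 57 of 62 passed, or 91.9%, against 38.9% of 21461 nuclear protein-coding genes (8345). The median member had 40.7 TPM (replicate 1) and 23.9 TPM (replicate 2), a mean of 32.3 ± 11.9 (SD, n = 2). The median of detected nuclear protein-coding genes was 9.31 and 6.08 TPM. By mean TPM 8 members reached 100, 37 lay between 10 and 100, 13 between 1 and 10, and 4 below 1. Among all nuclear protein-coding genes ranked by mean TPM, 5 members were in the first 100, 21 in the first 500 and 33 in the first 1000. Genes of the mitochondrial genome were not ranked. Ribosomal protein genes were higher still (80 genes, median 222 and 144 TPM) and aminoacyl-tRNA synthetases lower (20 genes, 27.0 and 17.8 TPM). All members together held 3.22% and 3.15% of the counts on nuclear protein-coding genes.

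**Figure D1:**
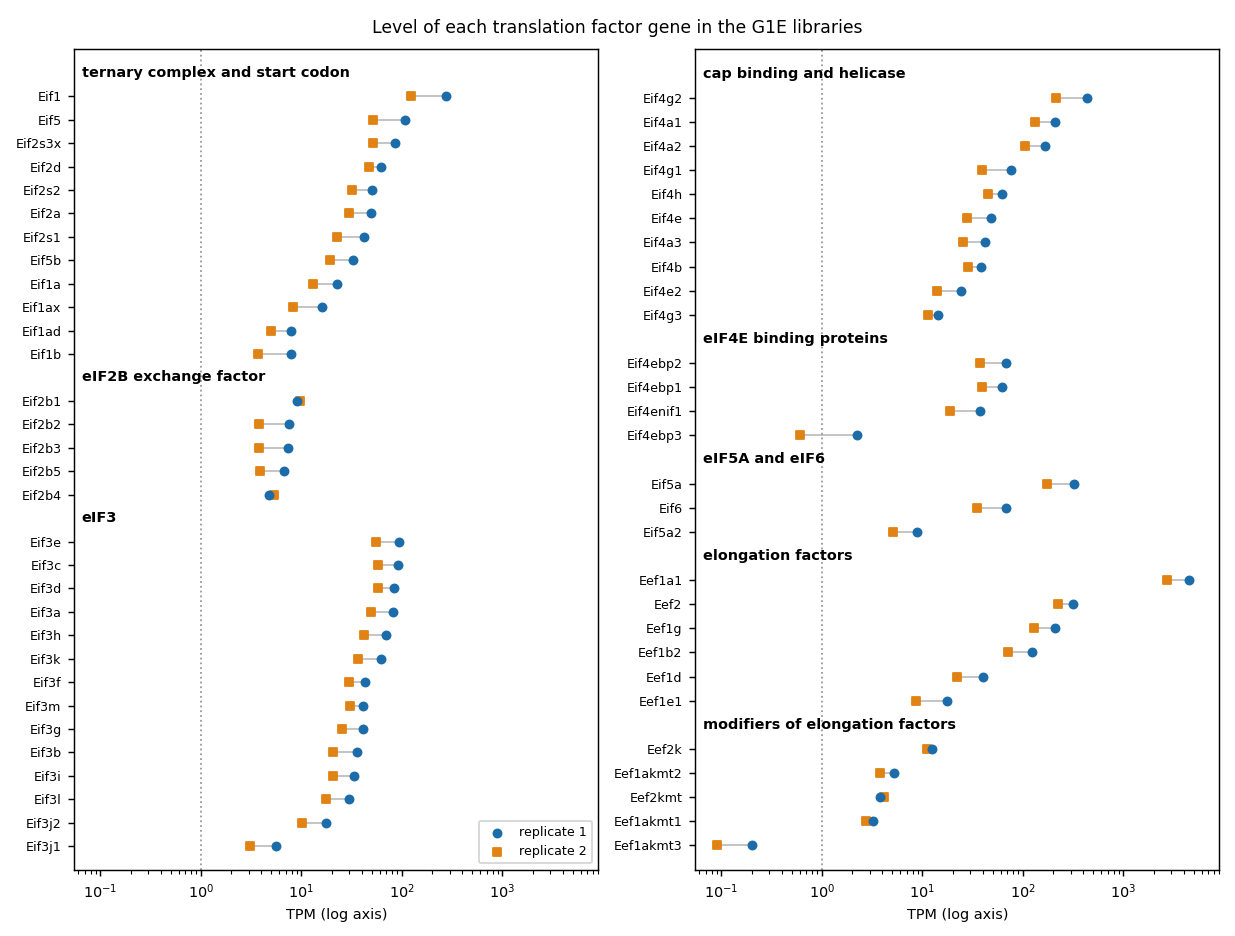
TPM of the 59 members with any count in replicate 1 (blue circles) and replicate 2 (orange squares), on a log axis, ordered within roles by mean TPM. The dotted line marks 1 TPM. Eef1a1 stands apart at 4445 and 2713 TPM, and the 5 eIF2B subunits lie below 10 TPM; Eef1a2, Eif4e1b and Eif4e3, with no counts, are not drawn.

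TPM was higher in replicate 1 for 56 of the 59 members with any count, and in replicate 2 for Eif2b1, Eif2b4 and Eef2kmt. TPM divides by an estimated length. That length was 1958, 1679 and 1626 bases for these genes in replicate 1, but 1435, 1338 and 1114 in replicate 2. The part of length in their order was not tested. The median TPM ratio of replicate 1 over replicate 2 was 1.69 over members and 1.55 over detected nuclear protein-coding genes. The SDs of TPM below contain this shift, so ratios between libraries are given after TMM scaling, which sets the bulk of genes to a ratio near 1. Levels of different genes within a library do not depend on it.

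Eef1a1 held the top of the order in both libraries. This gene (ENSMUSG00000037742.10, chromosome 9, 78478449 to 78489151, mm10, minus strand), which encodes eEF1A, had 4444.7 TPM (replicate 1) and 2712.6 TPM (replicate 2). Its mean was 3579 ± 1225 (SD, n = 2), and it ranked 1 among nuclear protein-coding genes. It alone made up 53.1% and 54.0% of the members' TPM, and 39.8% and 41.7% of their counts. Eef2 (ENSMUSG00000034994.9, chromosome 10, 81176631 to 81182498, plus strand), the translocase, had 312.4 and 224.8 TPM. By mean TPM it ranked 67, below the initiation gene Eif4g2 (rank 55). In replicate 2 alone Eef2 was above Eif4g2 (212.9 TPM). On transcripts annotated as protein coding Eef2 was above it in both libraries, as Eif4g2 had 197.0 and 119.0 TPM there. Eef1a1 was 14.2-fold and 12.1-fold above Eef2, and 8.35-fold and 8.14-fold above it on transcripts annotated as protein coding, an alternative added after the values were seen.

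The subunits that recharge eEF1A were far below it. Eef1g, the gamma subunit, had 209.6 and 128.8 TPM, Eef1b2, an exchange subunit, 123.4 and 71.4, and Eef1d, the other exchange subunit, 40.5 and 22.2. Eef1a1 exceeded Eef1g 21.1 ± 0.101-fold, Eef1b2 37.0 ± 1.41-fold and Eef1d 116 ± 8.84-fold (SD, n = 2), so the order Eef1a1, Eef1g, Eef1b2, Eef1d was the same in both libraries. On protein-coding transcripts alone the last pair changed places, with 36.1 and 19.3 TPM for Eef1d and 31.5 and 16.0 for Eef1b2. There Eef1a1 exceeded Eef1g 39.0 ± 6.11-fold, Eef1b2 98.5 ± 22-fold and Eef1d 83.6 ± 15.8-fold. These ratios were picked after the values were seen. Eef1e1, a partner of the multi-synthetase complex, was the lowest detected gene of the group at 17.7 and 8.61 TPM.

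Eef1a2, the eEF1A paralog known from muscle and neurons, had 0 counts in both libraries. Against a floor of 3 counts per library, Eef1a1 was at least 61915-fold higher in replicate 1 and at least 52127-fold higher in replicate 2. Such floors and all intervals cover counting error only.

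The enzymes that modify elongation factors were low. Eef2k, the kinase that inhibits eEF2, led with 12.4 and 11.1 TPM. The lysine methyltransferases Eef1akmt2 (5.17 and 3.81 TPM), Eef2kmt (3.80 and 4.12) and Eef1akmt1 (3.20 and 2.72) followed. Eef1akmt3 had 11 and 7 counts (0.20 and 0.09 TPM), below the detection limit.

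eIF5A and eIF6 act beside both phases: eIF5A relieves stalled ribosomes, and eIF6 keeps free large subunits apart from small ones. Eif5a (ENSMUSG00000078812.6, chromosome 11, 69916714 to 69921958, minus strand) had 320.4 and 172.3 TPM (246.4 ± 104.7, SD, n = 2). In replicate 1 it stood 1.03-fold above Eef2 and in replicate 2 at 0.767 of it, so their order changed between the libraries. Eif6 had 67.4 and 35.0 TPM. Eif5a2, whose hypusine codons are printed above beside those of Eif5a, had 8.91 and 5.06.

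Genes of start codon recognition and of the initiator tRNA spanned a wide range. Eif1, which guards start codon choice during scanning, was highest with 275.7 and 122.7 TPM. Eif5, the GTPase activator of eIF2, had 106.2 and 51.0 TPM, and Eif5b, the GTPase of subunit joining, 32.8 and 19.2. Eif2a and Eif2d, which can deliver initiator tRNA outside the usual route, had 48.9 and 30.1, and 61.9 and 46.6 TPM. Eif1b, the paralog of Eif1, was lowest with 7.80 and 3.73 TPM, just below Eif1ad at 7.91 and 4.93, a gap smaller than the SD of either gene.

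The 3 subunits of eIF2 spanned 2.17 ± 0.188-fold (highest over lowest, SD, n = 2). Eif2s3x, the gamma subunit that binds GTP and tRNA, was highest at 85.2 and 52.0 TPM. Eif2s2 (beta) had 50.8 and 31.8, and Eif2s1, the alpha subunit whose phosphorylation halts initiation, 41.8 and 22.6. The order was the same in both libraries.

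eIF2B, which recharges eIF2, was the scarcest complex, with a median over its 5 subunits of 7.28 TPM in replicate 1 and 3.86 in replicate 2, against 50.8 and 31.8 TPM for eIF2. Eif2b5, the catalytic epsilon subunit, had 6.77 and 3.86 TPM, so Eif2s1 was 6.01 ± 0.235-fold higher (SD, n = 2). Eif2b1 (alpha) had 9.12 and 9.70, Eif2b2 (beta) 7.50 and 3.80, Eif2b3 (gamma) 7.28 and 3.76, and Eif2b4 (delta) 4.73 and 5.32. These 5 genes changed places between the libraries except for Eif2b1 in front, and their highest over lowest was 1.93 in replicate 1 and 2.58 in replicate 2. The estimated length that TPM divides by was shorter in replicate 2 for Eif2b1 and Eif2b4 and longer for Eif2b2 and Eif2b3. What this added to the change of places was not tested.

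eIF3, which has more subunits, spanned a wider range than eIF2 (2.17-fold) and eIF2B (2.25-fold as a mean of the libraries). Its 12 stable subunits lay between 29.5 TPM (Eif3l) and 93.6 TPM (Eif3e) in replicate 1 and between 17.4 (Eif3l) and 58.1 (Eif3c) in replicate 2. That was a spread of 3.25 ± 0.116-fold (SD, n = 2) with a coefficient of variation of 41.1% in each library. This coefficient was 38.7% and 42.4% for eIF2 and 22.3% and 48.3% for eIF2B. By this measure eIF3 was not wider than both in each library. Among the large core subunits Eif3a had 81.2 and 48.8 TPM, Eif3c 90.5 and 58.1, and Eif3b 35.4 and 20.9. Eif3d, which can itself bind the cap, had 83.9 and 57.9, and Eif3e 93.6 and 55.8.

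Of the other eIF3 subunits, Eif3h had 70.2 and 41.6 TPM and Eif3k 62.0 and 36.5. Eif3f (42.9 and 29.9), Eif3m (41.0 and 30.7) and Eif3g (41.0 and 25.4) were close together and changed order. Eif3i (33.5 and 20.4) and Eif3l (29.5 and 17.4) closed the list in both libraries.

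The loosely bound j subunit has 2 genes, and their values cannot be fully separated. Eif3j2 had 17.6 and 10.2 TPM and Eif3j1 5.63 and 3.09. Their coding parts were identical at 783 of 783 aligned bases, so the division of reads between them is uncertain, and both had estimated counts that were not whole.

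**Figure D2:**
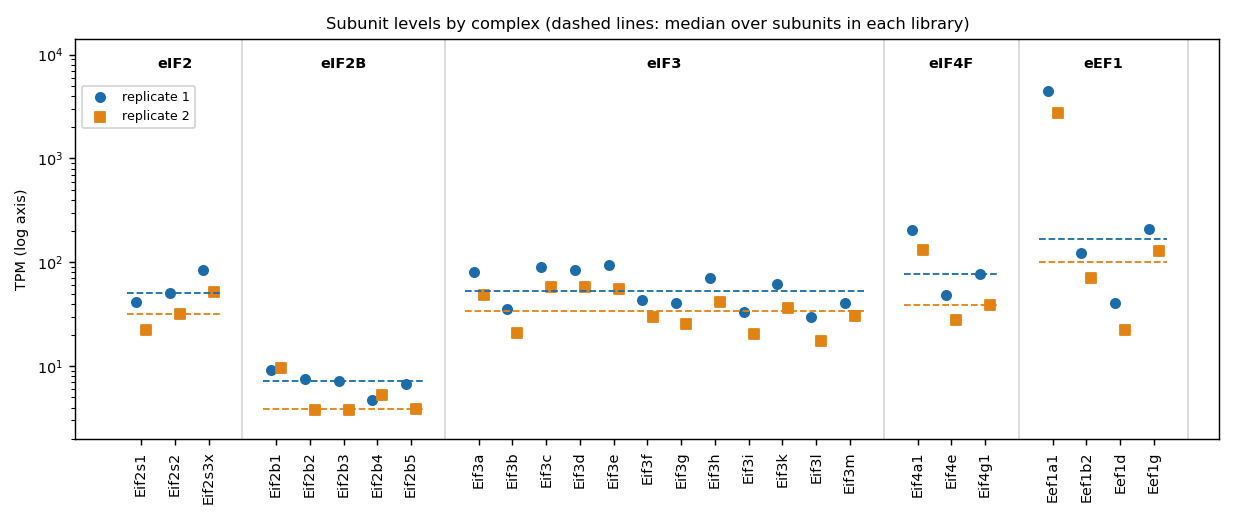
TPM (log axis) of each subunit of 5 complexes in replicate 1 (blue circles) and replicate 2 (orange squares), with dashed lines at the median over the subunits of a complex in each library. The eIF3 subunits keep within 3.33-fold of each other in either library and the eIF2B subunits lie below the others, while Eef1a1 is about 116-fold above Eef1d.

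Of the cap-binding complex eIF4F, the helicase gene had the highest level. Eif4a1 had 206.6 and 132.0 TPM, the scaffold Eif4g1 76.8 and 38.9, and the cap-binding protein Eif4e 48.2 and 27.7, so Eif4a1 was 4.53 ± 0.337-fold above Eif4e (SD, n = 2). On protein-coding transcripts alone this was 2.98 ± 0.273-fold. The helicase cofactor Eif4h (61.3 and 44.9 TPM) lay between them. Eif4b, another cofactor, had 38.4 and 28.4 TPM, below Eif4e in replicate 1 and slightly above it in replicate 2. The highest gene of the group was Eif4g2 with 438.2 and 212.9 TPM. It encodes DAP5, an eIF4G relative that does not bind eIF4E.

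The main inhibitors of eIF4E lay slightly above it. Eif4ebp1 had 61.9 and 39.3 TPM and Eif4ebp2 67.4 and 37.5, which was 1.35 ± 0.0944-fold and 1.38 ± 0.0337-fold the level of Eif4e (SD, n = 2). Eif4enif1, which carries eIF4E into the nucleus, had 37.4 and 18.6 TPM. Eif4ebp3 was near the detection limit with 2.22 and 0.61 TPM.

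Most paralog sets had a clear leading gene, and the values that follow are log2 ratios of levels, log2((TPM + 1) of a gene over (TPM + 1) of its paralog), within each library. Eif5a exceeded Eif5a2 by 4.93 ± 0.13 (SD, n = 2 here and below), and Eif1 exceeded Eif1b by 4.84 ± 0.19. Eif4g2 exceeded Eif4g1 by 2.46 ± 0.05, Eif4g1 exceeded Eif4g3 (14.4 and 11.5 TPM) by 2.01 ± 0.47, and Eif4ebp1 exceeded Eif4ebp3 by 4.47 ± 0.25.

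Further pairs had smaller ratios than these. Eif4e exceeded Eif4e2, a cap-binding repressor with 24.3 and 13.9 TPM, by 0.95 ± 0.01. Eif4ebp1 and Eif4ebp2 differed by -0.03 ± 0.13, with Eif4ebp2 ahead in replicate 1 (-0.12) and Eif4ebp1 ahead in replicate 2 (0.07). Eif1a, on an autosome, exceeded the X-linked Eif1ax by 0.53 ± 0.10, from 22.4 and 13.1 against 16.0 and 8.26 TPM. Eif3j2 exceeded Eif3j1 by 1.47 ± 0.03, with the uncertainty named above.

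Of the remaining cap-binding paralogs, Eif4e3 and the oocyte gene Eif4e1b had 0 counts in both libraries. Against the same floor of 3 counts, Eif4e was at least 818-fold (replicate 1) and 649-fold (replicate 2) above Eif4e3. For Eif4e1b that floor (0.165 and 0.120 TPM) gave 293-fold and 231-fold. The deposited credibility interval of Eif4e1b reached higher, up to 1.14 and 0.842 TPM, so these folds are not lower bounds. Gm20696, a gene that overlaps Eif4e3 on the same strand, had 44.75 and 50.03 counts, and how reads were divided between the pair was not tested.

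The Eif4a set depended on which transcripts are summed. From all transcripts, Eif4a1 exceeded Eif4a2 (166.1 and 104.0 TPM) by only 0.33 ± 0.02 and Eif4a3, the helicase of the exon junction complex (42.2 and 25.2 TPM), by 2.30 ± 0.06. On transcripts annotated as protein coding alone, an alternative added after the values were seen, Eif4a2 had 26.7 and 18.4 TPM and Eif4a1 exceeded it by 2.24 ± 0.07. The same step took Eif1a over Eif1ax to 1.68 ± 0.03 and Eif4g2 over Eif4g1 to 1.76 ± 0.10. Eif5a over Eif5a2 stayed at 4.93 ± 0.13.

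**Figure D3:**
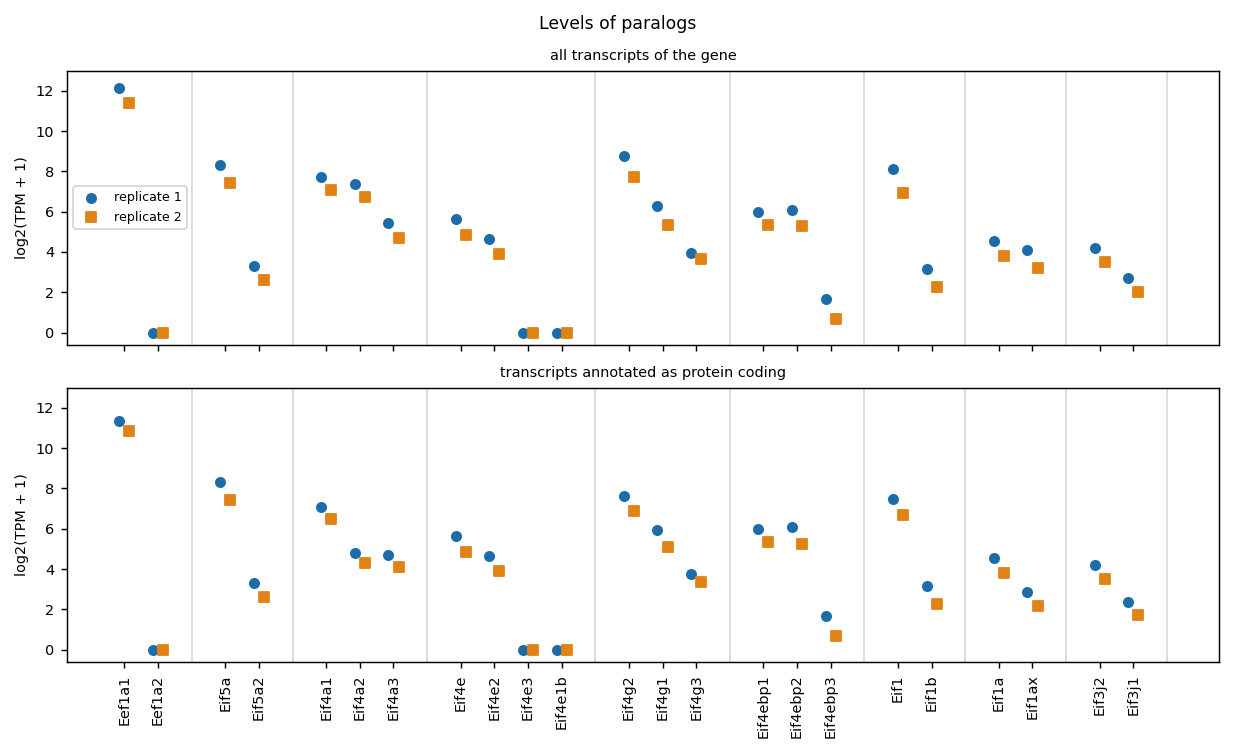
Levels of paralogs as log2(TPM + 1) in replicate 1 (blue circles) and replicate 2 (orange squares), from all transcripts of a gene (upper panel) and from transcripts annotated as protein coding (lower panel). Eif4a2 lies close to Eif4a1 in the upper panel and close to Eif4a3 in the lower one; Eef1a2, Eif4e3 and Eif4e1b lie at 0 in both.

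A large part of several members' signal fell on transcripts that the annotation does not class as protein coding. Of the 57 detected members 36 have several annotated transcripts and 21 have 1. Among these 36, the main transcript held a median of 58.8% of the gene's TPM, at least 90% in 7 genes and under 50% in 14. In 6 members the main transcript was not protein coding, and this was not counted over other genes. The median share of TPM on transcripts not classed as protein coding was 23.2% in replicate 1 and 22.3% in replicate 2. It was 16.2% and 16.5% for 6303 detected nuclear protein-coding genes with several transcripts. A share of at least 20% was reached by 52.8% of members in each library, against 46.0% and 45.6% of these genes. At least 50% was reached by 22.2% and 19.4% of members, against 18.2% and 17.9%.

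By TPM Eif4a2 led the list. Its transcripts with a retained intron held 75.9% and 76.4% of its TPM, those annotated for nonsense-mediated decay 8.05% and 5.89%, and the protein-coding ones 16.0% and 17.7%. Introns of this gene host several small nucleolar RNAs. Because TPM divides by length, short transcripts weigh more in it: by estimated counts the protein-coding share of Eif4a2 was 38.5% and 43.3%.

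By mean share of TPM, Eif6, Eef1b2, Eef1g and Eif2a came next. Transcripts not classed as protein coding held 79.6% and 73.2% of the TPM of Eif6, 74.5% and 77.5% of Eef1b2, and 71.3% and 59.1% of Eef1g. By counts these shares were 50.9% and 41.6%, 58.4% and 63.3%, and 53.8% and 40.8%. In Eef1b2 the main transcript is annotated for nonsense-mediated decay and held 50.1% and 51.2% of the TPM. In Eef1g the retained-intron class held 45.2% and 44.8%. For Eif2a transcripts not classed as protein coding held 74.5% and 54.9% of TPM, and 79.8% and 55.3% of counts.

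In 20 of the 36 genes this share was lower by counts than by TPM in both libraries, and in 5 (Eif2a, Eef1d, Eif2s2, Eif3m and Eif3i) it was higher in both. Eef1d had 11.0% and 13% of TPM outside protein-coding transcripts, and 18.6% and 25.8% of counts. Eif1ax had 61.4% and 58.2% of its TPM on a 416-base retained-intron transcript, but only 8.69% and 7.45% of its counts. In Eif4g2 the figures were 55.1% and 44.1% of TPM, against 13.1% and 8.91% of counts. In Eef1a1 transcripts not classed as protein coding took 41.3% and 32.6% of TPM and 16.9% and 11.1% of counts, so its protein-coding transcripts had 2608 and 1830 TPM. Over all 36 genes the median by counts was 8.64% and 7.77%, against 7.11% and 7.33% for the 6303 genes, so the gap seen in TPM was small in counts.

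**Figure D4:**
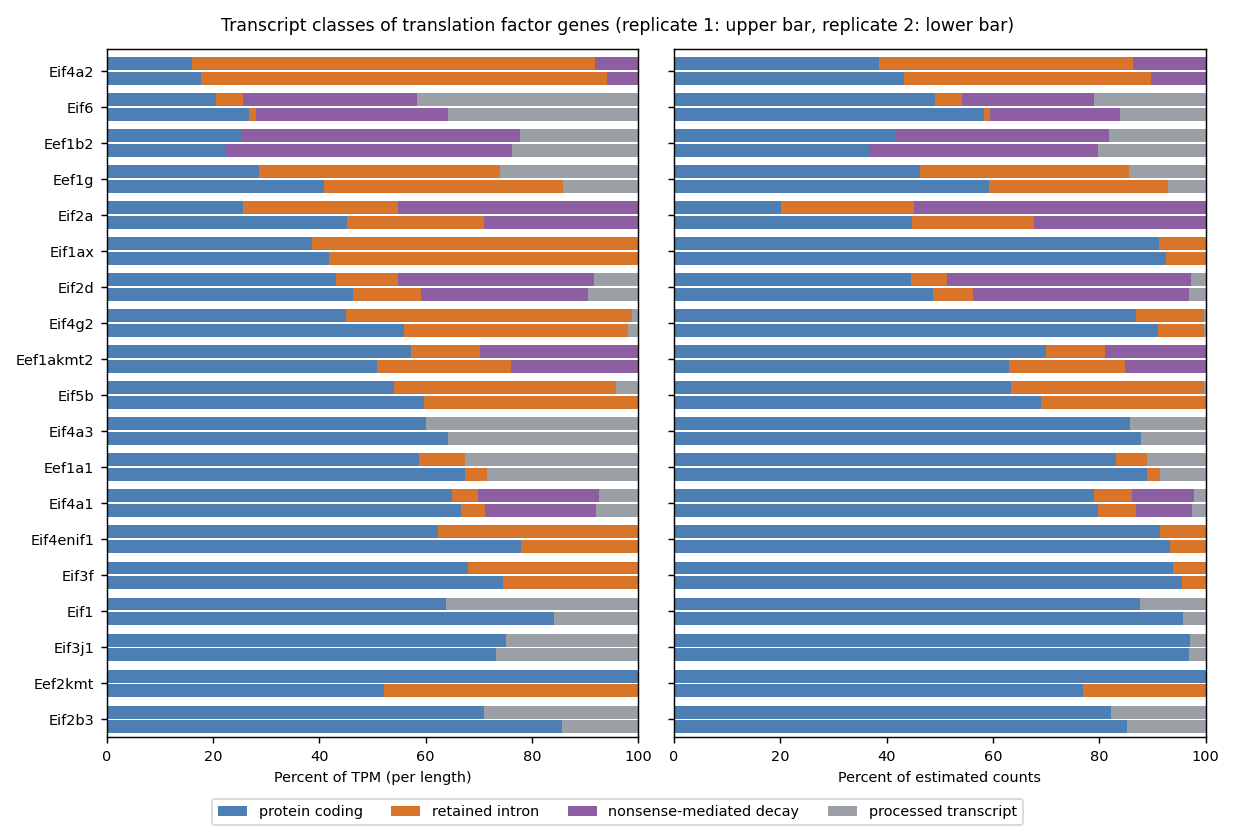
Transcript classes of the 19 members with at least 20% of mean TPM outside protein-coding transcripts, as a percent of TPM (left) and of estimated counts (right); for each gene the upper bar is replicate 1 and the lower bar replicate 2. Orange (retained intron) fills most of the Eif4a2 bars on the left, while the Eif1ax and Eif4g2 bars are mostly blue (protein coding) on the right. In each library 52.8% of the 36 members with several transcripts reached 20% of TPM, against 46.0% and 45.6% of 6303 detected genes.

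The main transcript was different in the 2 libraries for Eif5a, Eif6 and Eif2b4. In Eif5a, transcript Eif5a-209 held 54.1% of TPM in replicate 1 and 39.3% in replicate 2, and Eif5a-210 held 33.8% and 44.0%, both protein coding. In 17 of the 36 genes some transcript shifted by more than 10 percentage points. Eef2, Eif4e, Eif4b, Eif4h, Eif5a2, Eif2s1 and most eIF3 subunits have 1 annotated transcript or nearly all TPM on 1, and their levels do not depend on such a division. Division of reads between genes is a separate limit, as counts of Eef2, Eif4e, Eif2s1, Eif3c and Eif3e were not whole. Among processed pseudogenes named after the families, Eif3s6-ps2 had 127 and 66.8 counts and Eif4a-ps4 202 and 177. How reads were divided between such entries and members was not tested.

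Few members differed between the libraries by the size required for a call. The comparison used a two-sided exact binomial test on estimated counts with Benjamini-Hochberg adjustment over all genes, and called a gene at an adjusted p under 0.05 with at least a 2-fold ratio. Of 59 tested members 1 was called, higher in replicate 1, and 0 were called higher in replicate 2. Of all 11902 tested genes 7.3% were called, 2.22% higher in replicate 1 and 5.08% higher in replicate 2. That split (264 and 605 genes) turned with scaling to total counts, to 1021 higher in replicate 1 and 396 higher in replicate 2, and the members called stayed at 1 and 0. At an unadjusted p under 0.05 alone 40 of the 59 passed. Over all tested genes, 95% intervals lay above 1 for 19.4% and below 1 for 21.4%. Members were not matched to other genes for counts, so 40 of 59 is not shown to be a trait of members. The negative binomial exact test of edgeR, which allows for spread beyond counting error, called 0 members. Its dispersion was estimated from these same 2 libraries taken as 1 group, so the difference tested helped to set the spread.

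The called member was Eif4ebp3 (ENSMUSG00000090264.1, chromosome 18, 36664060 to 36665917, plus strand), an inhibitor of eIF4E. It had 29.7 estimated counts in replicate 1 and 11.1 in replicate 2, a ratio of 2.43 (95% Clopper-Pearson interval 1.19 to 5.38, adjusted p = 0.0381 by the exact binomial test). Its call ended with a filter of at least 50 counts (0 of 57 members called) and in the negative binomial test (adjusted p = 1). Its counts were not whole. The later annotation places AC115631.1, listed at 0 counts, over it on the same strand, and how reads were divided was not tested.

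All 57 members with at least 100 counts over both libraries lay within 1.5-fold of equal, or 100%, against 91.6% of 9228 genes with such counts. Beyond that limit members and other genes were not matched for counts, and counting error is larger in genes with fewer counts. The median ratio was 1.07 over members and 0.998 over all tested genes (log2 0.10 and -0.00). Of the 59 members 43 lay above the median of all genes. Intervals lay above 1 for 28 members, below 1 for 12 and held 1 for 19, and over all tested genes 19.4% lay above 1 and 21.4% below it.

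The largest ratios after Eif4ebp3 belonged to Eef1akmt3 (1.40, interval 0.496 to 4.27), Eif1b (1.36, 1.03 to 1.81), Eif5 (1.35, 1.30 to 1.39) and Eef1e1 (1.34, 1.13 to 1.59). Among these Eif5 had the most counts, 8676 in replicate 1 and 5752 in replicate 2. At the other end stood Eif2b4 (0.737, 0.593 to 0.916), Eef1akmt1 (0.767, 0.513 to 1.14), Eif4g3 (0.841, 0.786 to 0.901), Eif2b1 (0.852, 0.735 to 0.987) and Eif3f (0.860, 0.802 to 0.922). None of these 9 reached the 2-fold limit.

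Ratios differed a little between roles. The start codon and initiator tRNA genes had a median ratio of 1.13, with intervals above 1 in 8 of 12 and below it in 1. eIF3 had a median of 1.09, with 8 intervals above 1 and 3 below it among 14. eIF5A and eIF6 had 1.14, with 3 of 3 above 1. The 10 tested cap-binding and helicase genes had 1.03, with 4 above 1 and 3 below it. eIF2B had 1.02, with 1 above and 2 below among 5. The 4 eIF4E binding proteins had 1.10, with 2 above and 0 below. The 5 modifiers of elongation factors had 0.907, with 0 above and 0 below. Eef1a1 (0.971, 0.962 to 0.979) and Eef2 (0.897, 0.880 to 0.915) had ratios below 1, as did Eef1g (0.947, 0.909 to 0.987), and the 6 tested elongation factors had a median of 1.03. These differences between roles were not tested.

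**Figure D5:**
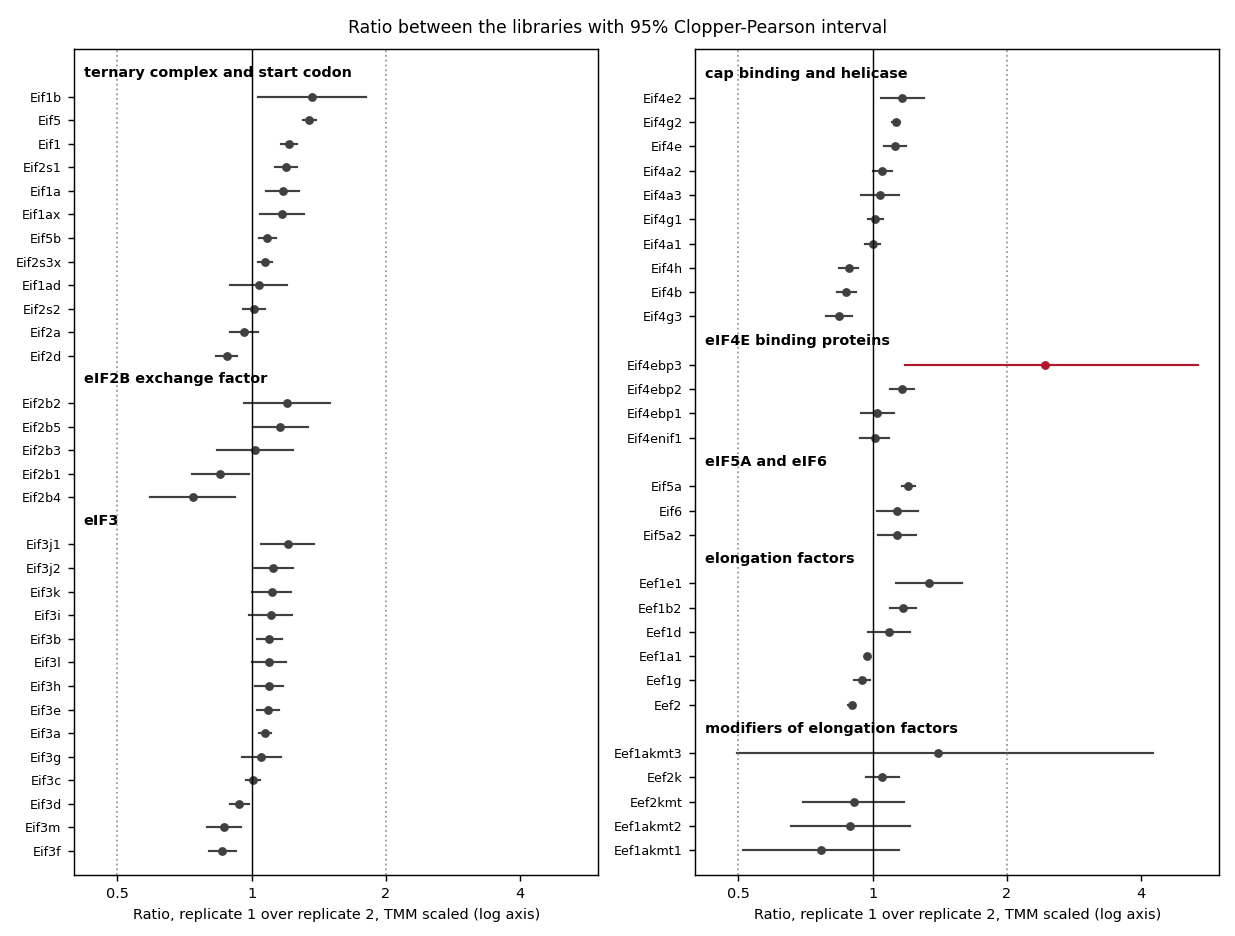
Ratio of replicate 1 over replicate 2 after TMM scaling for the 59 tested members (points) with 95% Clopper-Pearson intervals (bars), on a log axis, ordered within roles. Dotted lines mark 2-fold. Eif4ebp3, the 1 called member, is in red at 2.43; intervals cover counting error only.

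Genes that act with the members were described from 6 lists of 45 genes, of which 42 were detected and 0 of 44 tested were called. The poly(A)-binding protein Pabpc1, which joins the tail of the mRNA to eIF4G, was the highest at 1159 and 809 TPM, followed in its list by Pabpc4 (69.4 and 43.7). Paip2b (1.76 and 1.01) and Paip1 (16.9 and 10.6) were lowest. The release factor Gspt1 had 131.8 and 74.9 TPM and the recycling factor Abce1 82.1 and 43.7, while Pelo had 2.79 and 1.84 and Gspt2 had 0 counts.

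Of the enzymes that modify eIF5A and eEF2, Dph6 (25.4 and 11.1 TPM) and Dph3 (18.9 and 9.17) led and Dph2 (2.10 and 1.13) and Dph1 (2.07 and 0.64) were lowest. These 4 serve diphthamide synthesis on eEF2. Ddx3x (83.5 and 47.6 TPM), a helicase of scanning, and Abcf1 (16.8 and 10.3) led the list of scanning and reinitiation, with Abcf3 (5.78 and 2.87) and Mcts2 (5.05 and 3.21) at its end.

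In the list of signalling to the factors, Pdcd4, an inhibitor of eIF4A, had 45.9 and 34.9 TPM, and Larp1, which binds oligopyrimidine tracts, 39.5 and 24.7. Rps6kb2 (6.88 and 2.97) and Mlst8 (1.07 and 0.70) were lowest there. The mitochondrial factors ran from Tufm (17.9 and 12.5 TPM) and Gfm1 (17.5 and 10) to Mtrf1l (3.00 and 1.83) and Mtif3 (2.40 and 1.92). Tufm, the mitochondrial counterpart of eEF1A, was thus far below Eef1a1. The 4 eIF2 kinases, left out of the members, ranged from a mean of 2.99 TPM (Eif2ak3) to 10.4 TPM (Eif2ak1, the kinase that senses haem), and 0 of them were called.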

How the data were processed

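The authors deposited, per the file headers, expected counts (estimates, so not all whole) for each gene and transcript. They also deposited TPM and FPKM values, both per length. The deposited percent columns give each transcript's share of its gene's TPM, and the deposited signal columns give the bounds of credibility intervals of TPM and FPKM. Per the deposited file records, the build was mm10 with GENCODE M4. Aligner and quantifier: not given in the sources used here. Annotation was taken from GENCODE M21 (GRCm38), matched by identifier for 42462 of 43346 gene entries; the others held 0.0818% and 0.0571% of counts. Transcript classes, coding parts and overlaps came from the same release, and 309 of 315 member transcripts matched; the others were kept with the protein-coding ones. Promoter windows came from RefSeq (GRCm38.p6), and 16 members had none.

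Estimated counts were rounded to whole numbers, scaled by TMM (edgeR 4.0.16, R 4.3.3) and compared between the libraries by a two-sided exact binomial test for 11902 genes with at least 10 counts over both, with Benjamini-Hochberg adjustment. This test covers counting error in a pair of libraries, not a condition. Logarithms of TPM used a pseudocount of 1. On simulated counts with 11891 tested genes it recovered 62% of 50 genes changed 2-fold and 100% of 50 each changed 3-, 8- and 20-fold. It called 1 of 11691 unchanged genes. These counts were Poisson draws with the same underlying level in both libraries for unchanged genes, so they hold no spread between cultures. Changed genes were drawn from those with at least 100 counts, more than Eif4ebp3 had. The simulation therefore does not give the rate of false calls in real libraries. Alternatives covered scaling, filters, the estimate used, the pseudocount, DESeq2 1.42.0 size factors and edgeR's negative binomial test with a common dispersion (coefficient of variation 26.3%). That dispersion came from the same 2 libraries taken as 1 group.

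The members and lists were chosen with earlier results of these data known. Named were the highest and lowest member of each role, all subunits of eIF2, eIF2B, eIF3 and eEF1, all paralog sets, called members, the 5 largest ratios in each direction, and the 2 highest and 2 lowest genes of each other list. Eif1a was placed in its role group, and its ratio to Eif1ax taken, after its values were seen. Python 3.11.15, pandas 2.3.3, NumPy 2.4.6, SciPy 1.17.1, Biopython 1.88 and matplotlib 3.10.9 were used besides.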

Additional observations from a re-analysis of the deposited data

How the results depend on the processing

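The count of detected members was 57 or 58 under every alternative run except a limit of 5 TPM, which left 47. The median member level lay between 22.3 (FPKM) and 40.7 (replicate 1 alone), and between 23.9 and 40.7 TPM when either library was left out. Of 46 alternatives for summary values 34 stayed close to the value reported (within 1 SD over the libraries, or 1.5 times for counts), and of 109 for single pairs and complexes 84 did. With 2 libraries, leaving out either always shifts a value judged by the SD by less than 1 SD. Short of a change of sign, such alternatives could not count as moved. The totals of 34 and 84 include them and so do not measure stability by themselves. Each median ratio between the libraries was taken as moved past 0.1 on the log2 scale.

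Scaling decided the ratio between the libraries. The median log2 ratio of members was 0.63 with total counts (0.52 over all genes), 4.60 with spike-ins (4.49), and 0.71 and 0.74 from TPM with a pseudocount of 1 and 0.1, without TMM. Spike-ins had 514 and 10351 counts in replicates 1 and 2, and with them 59 members and 97.8% of all genes were called (11608 higher in replicate 1 and 36 in replicate 2). Of all genes 11.9% were called with total counts, 4.36% with at least 50 counts and 2.49% by the negative binomial test, against 7.3%. With at least 50 counts 0 members were called higher in replicate 1, and 0 with the negative binomial test (0 of 59 also at an unadjusted p under 0.05). Calls higher in replicate 2 were 0 in each setting.

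The median size of the paralog log2 ratios was 2.40, against 2.36 from posterior mean TPM, 2.44 with a pseudocount of 0.1 and 2.30 on protein-coding transcripts (leaving out either library, 2.38 to 2.42). The median spread within complexes was 3.25, against 2.98 on protein-coding transcripts (3.17 to 3.33 leaving out either library). The median share of the main transcript was 58.8%, against 55.1% from posterior mean TPM (58.6% to 58.9% leaving out either library). The protein-coding restriction was chosen after seeing the data. Eif4ebp1 over Eif4ebp2 was -0.03 and changed sign when a library was left out (-0.12 to 0.066).

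No paired analysis was possible because the labels define 1 group. A pair of libraries gives no test of the spread between cultures, 21 members had counts that were not whole, and the deposited TPM of Eef1a1 (4445 in replicate 1) lay above its own credibility interval (4251 to 4338), 1 of 8 such members in replicate 1 and 4 in replicate 2. The cause was not tested.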
